A study of Mus musculus with 32 samples.

Results

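Alveolar type 1 cells are the thin cells that cover most of the gas exchange surface of the lung, and 9 genes that mark them in the mouse (Ager, Hopx, Pdpn, Aqp5, Spock2, Rtkn2, Clic5, Akap5 and Emp2) were followed through 32 whole-lung RNA libraries of C57BL/6 pups. They were chosen by name as known markers of this cell, with earlier results of these data known. All 9 were found among the 18853 genes with exon reads. Each of the 8 groups had 4 libraries. At postnatal day 14 the groups were pups given saline into the peritoneum at 25 µl per g once a day over days 1 to 13 ("daily saline"), pups given Scrambled 1 or Scrambled 2, which are locked nucleic acid inhibitor probes (10 mg per kg in nuclease-free water on days 1 and 3), pups given that water alone (10 µl per g on days 1 and 3), and untreated pups. At day 6 they were pups given 0.4 mg tamoxifen in 25 µl Miglyol on days 1 and 2, pups given 25 µl of Miglyol, the oil that carried the tamoxifen, and pups given 25 µl of saline on the same days. The labels name no transgene or allele in any group. All lungs were perfused and used whole, without isolation of any cell type. In such tissue, fewer cells of a type and less RNA per cell cannot be told apart. Pups were killed with pentobarbital at day 6 and with isoflurane at day 14.

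Type 1 cells arise from the same progenitors as the surfactant-making type 2 cells, and they flatten and widen while the alveoli are being divided after birth. NKX2-1 is a transcription factor that both cell types need, and the YAP and TAZ coactivators, acting through TEAD factors, promote the type 1 state in mice. Of the markers, Ager encodes the receptor for advanced glycation end products, which lies on the basal membrane of type 1 cells. Pdpn encodes podoplanin, a membrane glycoprotein of the apical surface that lymphatic endothelium and mesothelium also carry. Aqp5 encodes a water channel, Hopx a homeodomain protein that does not bind DNA, Spock2 a secreted matrix proteoglycan, Emp2 a tetraspan membrane protein, Clic5 a chloride intracellular channel protein tied to the cortical cytoskeleton, and Akap5 an anchor for protein kinase A. Rtkn2 is also used as a marker of these cells. Tamoxifen is a ligand of the oestrogen receptor, given to mice to activate inducible forms of Cre.

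Of the 9 genes, 3 differed among the groups at day 6, beside 23.9% of 14107 genes. For these 3, Hopx, Aqp5 and Spock2, the 250 bases before the start of the gene record are shown. Hopx and Aqp5 rose after tamoxifen against both Miglyol and saline, and Spock2 fell against saline only. The difference of Spock2 among the groups passed in only 8 of 22 alternatives. The sequences are from RefSeq (GRCm38.p6), written 5′ to 3′ on the strand of the gene. Capitals mark GGTCA, the half-site of the oestrogen receptor, searched on both strands.
Hopx, chr5:77115124-77115373, minus strand: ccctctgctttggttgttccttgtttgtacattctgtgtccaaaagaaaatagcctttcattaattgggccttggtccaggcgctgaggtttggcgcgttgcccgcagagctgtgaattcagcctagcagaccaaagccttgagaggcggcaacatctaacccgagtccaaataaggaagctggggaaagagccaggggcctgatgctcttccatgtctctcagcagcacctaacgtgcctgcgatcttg
Aqp5, chr15:99590778-99591027, plus strand: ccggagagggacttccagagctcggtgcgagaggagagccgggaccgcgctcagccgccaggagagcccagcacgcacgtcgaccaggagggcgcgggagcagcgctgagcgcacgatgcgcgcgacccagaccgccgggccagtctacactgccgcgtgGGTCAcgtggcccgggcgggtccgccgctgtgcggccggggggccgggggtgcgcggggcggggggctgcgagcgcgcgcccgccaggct
Spock2, chr10:60106007-60106256, plus strand: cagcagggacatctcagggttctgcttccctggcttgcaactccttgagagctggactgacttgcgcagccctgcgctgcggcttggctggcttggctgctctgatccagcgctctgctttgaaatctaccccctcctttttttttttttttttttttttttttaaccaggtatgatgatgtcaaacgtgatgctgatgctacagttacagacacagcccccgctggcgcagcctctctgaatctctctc
The Aqp5 window held 1 match, 90 bases before the start, and those of Hopx and Spock2 held none. Among 32851 RefSeq windows of this length, 35.2% held the half-site, and 4 of 9 windows of the markers did (those of Pdpn, Aqp5, Emp2 and Clic5; Hopx had a pair of windows, and Rtkn2 is named only). Of these 9 windows, 5 end at the start of the files' gene record, while those of Ager, Akap5 and Clic5 and the other window of Hopx lie inside the record, before another annotated start. The TEAD core GGAATG was in 12.6% of all windows and the NKX2-1 site CAAGTG in 11.6%, and neither was in any of the 9 windows. These are letter matches in a short window.

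Library depth ran from 7918537 to 12443221 exon reads. Exon reads per library ranged from 510 to 1036 for Pdpn and from 889 to 2317 for Aqp5. Reads of 8 genes were nearly all unique (at least 99.6%), while only 14.7% of the Aqp5 exon reads were. Aqp5 (chromosome 15, 99591028 to 99594829, 4 exons) overlaps the record of an antisense gene, Gm34765, with 0 exon reads and 810 gene reads in all libraries. Reads of the pair cannot be told apart where counting ignored strand, so the values of Aqp5 carry this limit throughout. The source of its low unique share was not tested. Hopx lies on chromosome 5 at 77086986 to 77115123 and Spock2 on chromosome 10 at 60106257 to 60135198, in the coordinates of the files. Pdpn lies on chromosome 4 at 143267409 to 143299564, Rtkn2 on chromosome 10 at 67979566 to 68043864, Akap5 on chromosome 12 at 76324402 to 76334151 and Emp2 on chromosome 16 at 10281749 to 10313968. Ager and Clic5 are both on chromosome 17, at 34597410 to 34600937 and at 44134678 to 44280168. The labels do not say which samples came from separate animals, and p-values therefore reflect only the spread among these samples, part of which may be technical. Reads were present for all 20 further type 1 genes and all 12 type 2 markers listed. Water replicate 3 stood apart in genes of skeletal muscle and fat, and comparisons with water were repeated without it.

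On the scale per length (the authors' TPM), Ager was the most abundant of the 9 in each group, followed by Emp2, Hopx and Aqp5. In untreated lungs at day 14, Ager averaged 1553 ± 93.6 TPM, Emp2 1096 ± 86.6 TPM, Hopx 597.9 ± 25.1 TPM and Aqp5 290.6 ± 18.3 TPM (SD, n = 4 libraries). The ranges of Ager, Emp2 and Hopx did not overlap those of the next gene in this order in any group, whereas Aqp5 and Clic5 (257.1 ± 18.3 TPM in untreated lungs) overlapped in 4 of the 5 day 14 groups. Below them, Spock2 averaged 154.3 ± 13.0 TPM, Akap5 131.0 ± 7.99 TPM, Pdpn 118.7 ± 5.02 TPM and Rtkn2 83.2 ± 12.5 TPM in untreated lungs. The order changed with age in its lower part. Clic5 stood above Spock2 and Akap5 in the day 14 groups, whereas at day 6 its range overlapped that of Akap5 in the tamoxifen, Miglyol and saline groups (151.6 ± 23.4 TPM for Clic5 and 156.4 ± 30.4 TPM for Akap5 after tamoxifen). Spock2, Pdpn and Rtkn2 lay between 85.2 and 132.0 TPM on average in the day 6 groups.

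**Figure D1:**
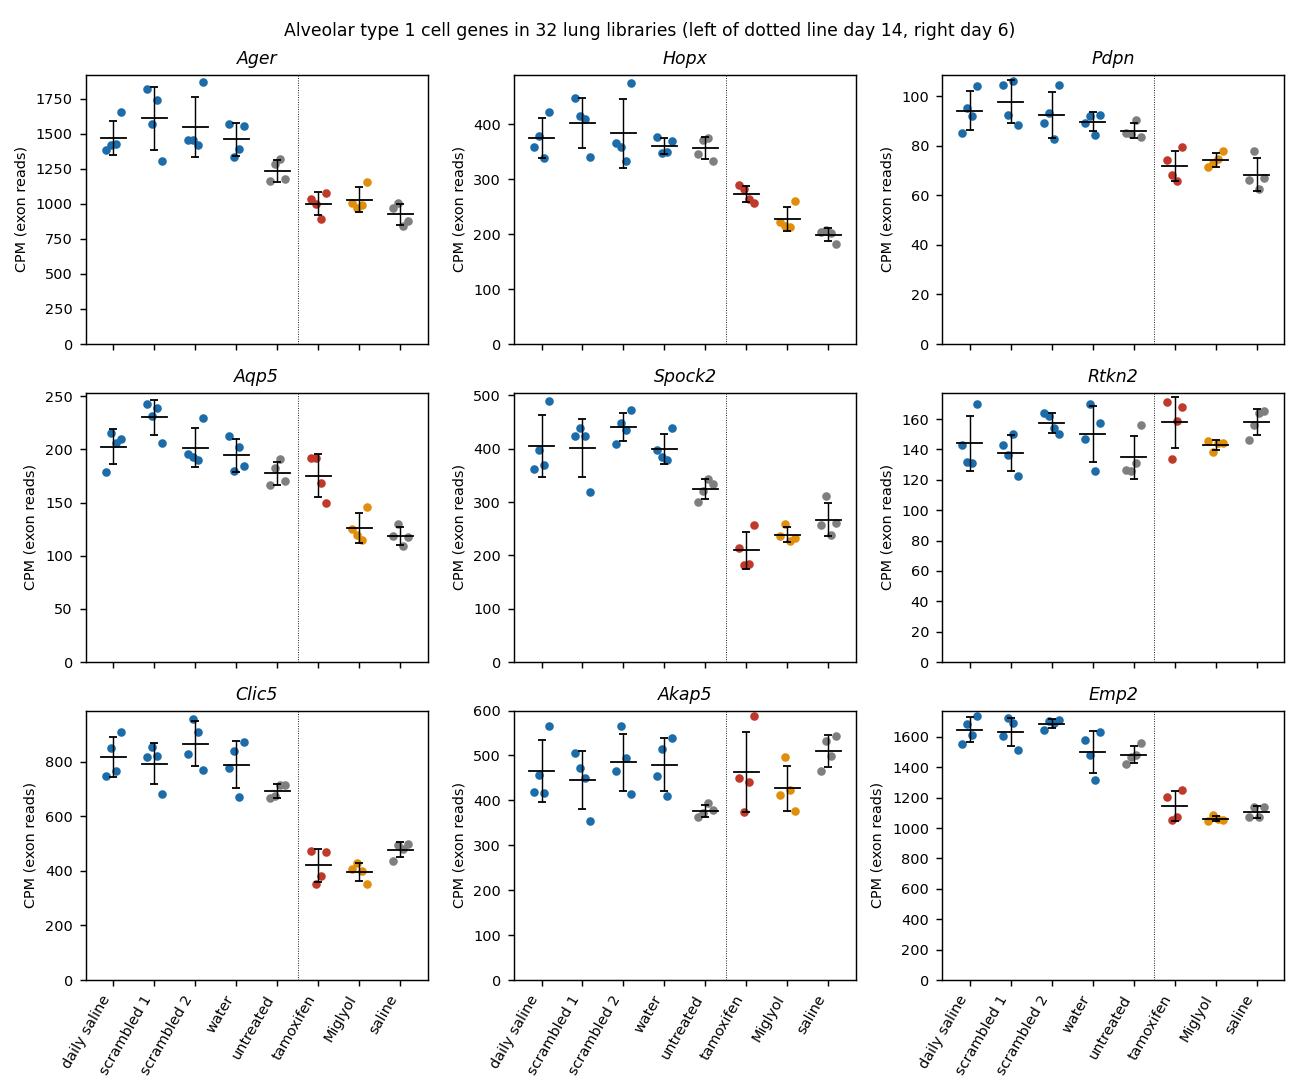
Library-size scaled exon reads (CPM, linear axis from 0) of the 9 genes in every library, by group, with day 14 groups left of the dotted line and day 6 groups right of it. Points are libraries, bars the mean and SD of 4. Clic5, Emp2, Ager, Hopx and Pdpn are higher in all day 14 libraries than in all day 6 libraries, while Rtkn2 and Akap5 overlap widely.

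The question of age was taken up by setting the mean of the 5 day 14 groups against the mean of the 3 day 6 groups, in CPM (exon read counts per unit of library size, scaled by the trimmed mean of M values). Age, killing agent and treatments differ together between these sets of groups and cannot be told apart. Of the 9 genes, 7 rose past the threshold (edgeR quasi-likelihood test, Benjamini-Hochberg adjusted p under 0.05) and none fell. Much of the transcriptome differed in this contrast: 61.4% of 14406 genes tested passed the threshold, 30% upwards and 31.3% downwards. The log2 fold changes of the 9 genes had a median of 0.54, beside a median of -0.0057 over all genes.

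Clic5 had a lowest value of 668.0, a median of 797.7 and a highest value of 958.5 CPM in the 20 day 14 libraries, against 352.3, 434.3 and 498.1 CPM in the 12 day 6 libraries. The ranges did not overlap, and Clic5 rose by a log2 fold change of 0.88 (SE 0.048, adjusted p = 2.78e-17), the largest rise among the 9. Spock2 had a lowest value of 300.9, a median of 396.9 and a highest value of 489.6 CPM at day 14, against 181.8, 237.1 and 311.7 CPM at day 6. Here the lowest day 14 library, an untreated one, lay under the highest day 6 library, a saline one, and the log2 fold change was 0.73 (SE 0.055, adjusted p = 3.78e-13). Hopx ran from 332.6 over a median of 367.1 to 475.4 CPM at day 14, against 182.1, 218.4 and 288.4 CPM at day 6. Its ranges were separate and its log2 fold change was 0.70 (SE 0.046, adjusted p = 4.35e-15).

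Ager, at 1164 to 1873 CPM (median 1422) at day 14 against 840.8 to 1159 CPM (median 995.1) at day 6, rose by 0.57 on the log2 scale (SE 0.049, adjusted p = 3.56e-12). The gap between its ranges was small, with an untreated library lowest at day 14 and a Miglyol library highest at day 6. Emp2 had 1314 to 1739 CPM at day 14 against 1045 to 1250 CPM at day 6 (log2 fold change 0.53, SE 0.032, adjusted p = 4.10e-16), and Pdpn had 82.8 to 106.0 CPM against 62.5 to 79.5 CPM (0.36, SE 0.039, adjusted p = 5.08e-10). Aqp5 had 166.8 to 243.1 CPM at day 14 and 108.9 to 192.1 CPM at day 6, and its ranges overlapped because 3 of 4 tamoxifen libraries exceeded the lowest day 14 library. Its log2 fold change was 0.54 (SE 0.044, adjusted p = 6.61e-13), and 0.56 from unique reads alone (adjusted p = 1.05e-10). In all, 5 of the 9 genes were higher at day 14 with no overlap, beside 4.65% of all genes.

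Rtkn2 and Akap5 did not pass the threshold. Rtkn2 had 122.3 to 170.3 CPM at day 14 against 133.8 to 171.1 CPM at day 6, a log2 fold change of -0.08 (95% interval -0.17 to 0.01, adjusted p = 0.123). Of its gene reads, 17.6% were intronic, the highest share among the 9, and with intronic reads counted too the change was -0.16 (adjusted p = 0.00365), which passed. It also passed, as a fall, without daily saline replicate 4 (adjusted p = 0.0319), untreated replicate 4 (0.0413) or tamoxifen replicate 2 (0.0294). Akap5 had 354.8 to 565.0 CPM at day 14 against 374.8 to 588.4 CPM at day 6, a log2 fold change of -0.05 (95% interval -0.18 to 0.07, adjusted p = 0.473). The interval of Akap5 lies below the rise of each of the 7 genes that rose.

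**Figure D2:**
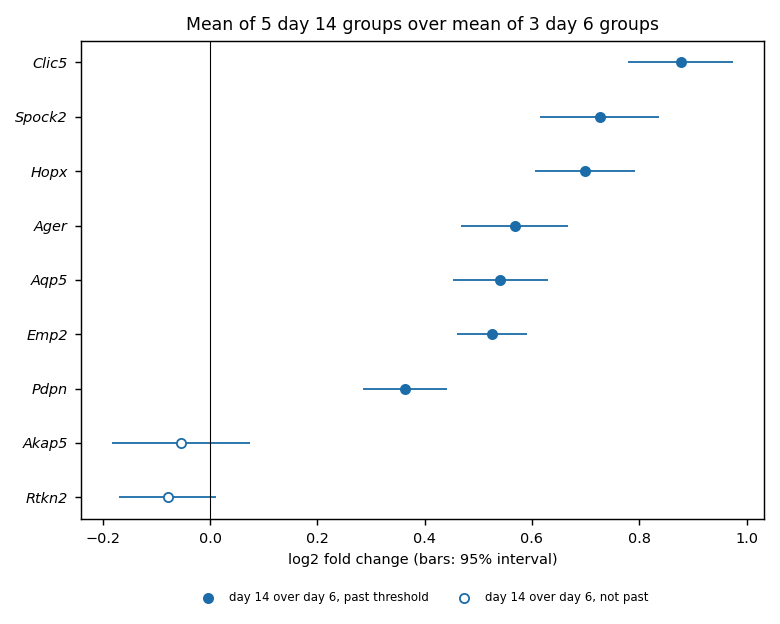
Log2 fold change of each gene, mean of the 5 day 14 groups over mean of the 3 day 6 groups, with its 95% interval. Filled points passed the threshold. The 7 filled points lie between 0.36 and 0.88, and the open points of Akap5 and Rtkn2 lie at -0.05 and -0.08.

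The wider type 1 list moved in both directions. Of 20 further genes of these cells, 14 rose and 3 fell with age (median log2 fold change 0.27), beside 30% of all genes that rose and 31.3% that fell. Pmp22, a tetraspan membrane protein gene, averaged 695.0 ± 31.7 CPM at day 14 (n = 20) and 424.2 ± 20.4 CPM at day 6 (n = 12), a log2 fold change of 0.71 (SE 0.027, adjusted p = 7.36e-22). Cav1, which encodes the caveolar coat protein and is also expressed in endothelium, rose by 0.50, Timp3, an inhibitor of matrix metalloproteinases, by 0.54, and Gprc5a, an orphan receptor gene, by 0.45. Among 13 genes of lineage factors and of the YAP/TAZ-TEAD pathway, 5 rose and 4 fell, near those shares of all genes. Nkx2-1 fell (132.5 ± 11.0 CPM at day 14 and 183.1 ± 20.2 CPM at day 6, log2 fold change -0.46, adjusted p = 1.42e-12), and Tead1 fell by 0.16 on the log2 scale. Wwtr1, which encodes TAZ, rose by 0.22 and Lats2, a kinase that restrains YAP and TAZ, by 0.31.

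Markers of other cells moved beside them, in a contrast where 30% of all genes rose and 31.3% fell. Of 12 type 2 cell markers, 1 rose and 5 fell (median -0.14), among them Cxcl15 (-0.41, adjusted p = 2.16e-10) and Lpcat1 (-0.23, adjusted p = 2.38e-05). All 7 capillary endothelial markers rose (median 0.43), including Car4 by 0.89 and Pecam1 by 0.45, and all 5 lymphatic markers fell. Of 5 mesothelial markers 1 rose and 3 fell, with Msln at a log2 fold change of -0.68. The list sums of the 9 genes ran from 4640 to 6266 CPM over day 14 libraries and from 3626 to 4298 CPM over day 6 libraries. The part of cell composition in the age difference was not tested.

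At day 6, tamoxifen in Miglyol was set against Miglyol alone, and both were set against saline. Only the comparison with Miglyol separates the drug from its oil. In tamoxifen against saline the drug and the oil differ together and cannot be told apart. After tamoxifen Aqp5 and Hopx rose against both vehicle and saline, and Spock2 fell against saline. A test for any difference among the 3 groups called 3 of the 9 genes (Aqp5, adjusted p = 0.000634, Hopx, adjusted p = 0.00100, and Spock2, adjusted p = 0.0453), beside 23.9% of 14107 genes. Spock2 passed in only 8 of 22 alternatives (adjusted p from 0.00181 to 0.251). The other 6 did not pass (adjusted p from 0.0666 for Clic5 to 0.442 for Pdpn).

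Aqp5 had 191.5, 192.1, 168.5 and 149.4 CPM after tamoxifen, against 124.7, 119.4, 114.3 and 145.6 CPM after Miglyol and 118.2, 130.1, 108.9 and 117.4 CPM after saline. All tamoxifen libraries were above all Miglyol and saline libraries, although tamoxifen replicate 4 and Miglyol replicate 4 lay close together. The log2 fold change was 0.48 over Miglyol (SE 0.087, adjusted p = 0.00371) and 0.56 over saline (SE 0.088, adjusted p = 0.000430). From unique reads alone it was 0.41 over Miglyol (adjusted p = 0.0166) and 0.48 over saline (adjusted p = 0.00226).

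Hopx had 288.4, 281.8, 263.7 and 256.9 CPM after tamoxifen, against 222.5, 214.3, 212.6 and 260.2 CPM after Miglyol and 204.2, 207.4, 201.4 and 182.1 CPM after saline. The tamoxifen libraries were above all saline libraries, and Miglyol replicate 4 fell inside their range. Hopx rose by 0.27 on the log2 scale over Miglyol (SE 0.070, adjusted p = 0.0305) and by 0.46 over saline (SE 0.071, adjusted p = 0.000352). The call over Miglyol is narrow: without tamoxifen replicate 1 the adjusted p was 0.108, and without Miglyol replicate 1, 2 or 3 it was 0.0968, 0.0916 or 0.0958, with log2 fold changes of 0.24 to 0.25. These were the 2 genes of 9 that rose over Miglyol, beside 3.71% of all genes that rose and 1.96% that fell. Aqp5 alone was higher than Miglyol without overlap, beside 5.63% of all genes, and both were higher than saline without overlap, beside 10.8%.

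Spock2 had 214.4, 181.8, 184.1 and 256.8 CPM after tamoxifen, against 236.5, 258.5, 226.9 and 233.3 CPM after Miglyol and 257.5, 311.7, 237.6 and 261.2 CPM after saline. The lowest values were tamoxifen replicates 2 and 3, and replicate 4 lay within the range of both other groups. Spock2 fell by 0.35 on the log2 scale over saline (SE 0.10, adjusted p = 0.0194). Its change over Miglyol was -0.19 (95% interval -0.40 to 0.03, adjusted p = 0.323). The call over saline was lost without tamoxifen replicate 2 (-0.29, adjusted p = 0.0624), tamoxifen replicate 3 (-0.29, adjusted p = 0.0596) or saline replicate 2 (-0.27, adjusted p = 0.0657). Against saline, 2 of the 9 genes rose and 1 fell, beside 11.3% of all genes that rose and 12.3% that fell.

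None of the 9 genes passed the threshold for Miglyol against saline, a comparison in which 10.6% of all genes did, and 4 of the 9 had an unadjusted p under 0.05, beside 29.6% of all genes. Clic5 came nearest, with 405.8, 430.7, 398.5 and 352.3 CPM after Miglyol, against 437.9, 496.5, 480.8 and 498.1 CPM after saline. Those ranges did not overlap, and the log2 fold change was -0.27 (95% interval -0.46 to -0.09, adjusted p = 0.0547). It passed with DESeq2 (adjusted p = 0.0292) and without Miglyol replicate 2 (adjusted p = 0.0427). Hopx was higher after Miglyol and Rtkn2 lower, both without overlap (log2 fold changes 0.19 and -0.15), beside 9.68% of all genes higher and 12.1% lower without overlap.

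The direction of the 9 genes for Miglyol against saline followed their exon length. The 4 genes with 1510 to 2022 exon bases (Hopx, Aqp5, Pdpn and Ager) all had log2 fold changes above 0 (median 0.13), and the 5 with 3440 to 7311 exon bases (Emp2, Rtkn2, Spock2, Clic5 and Akap5) all lay below 0 (median -0.17), although Aqp5 lay at -0.15 with the intronic share of reads as a covariate. The whole transcriptome was split in the same way. Of 3073 genes with at most 2022 exon bases, 89.9% lay above 0 (median 0.19), and of 7147 genes with at least 3440, 30.5% did (median -0.09). For tamoxifen against saline 4 of the 4 shorter genes and 1 of the 5 longer genes lay above 0, beside 81.9% of the shorter and 34.6% of the longer genes overall. For tamoxifen against Miglyol the split among all genes was smaller and ran the other way (43.4% of the shorter and 52.4% of the longer genes above 0).

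The trend of CPM with exon length, relative to the mean of the libraries fitted, was therefore removed from each library. This alternative was chosen after these values were seen. The slope of each library was taken relative to the mean of all libraries of its age. Positive slopes in some libraries therefore go with negative ones in others. The slope was positive in all 4 saline libraries (0.0588 to 0.128 log2 units per doubling of length). It ran from -0.142 to 0.0267 in the tamoxifen libraries and from -0.130 to 0.0116 in the Miglyol libraries. With the trend removed, Aqp5 rose by 0.50 over Miglyol (adjusted p = 9.62e-05) and by 0.42 over saline (adjusted p = 0.000184), and Hopx by 0.29 over Miglyol (adjusted p = 0.00118) and 0.32 over saline (adjusted p = 0.000326). Spock2 no longer passed over saline (-0.28, adjusted p = 0.0553). For Miglyol against saline, the values of the 9 genes then lay between -0.13 and 0.04, with Clic5 at -0.13 (adjusted p = 0.278). The intronic share of reads moved with the same groups, at 13.3 ± 1.33% after tamoxifen, 13.1 ± 1.25% after Miglyol and 15.1 ± 0.898% after saline (SD, n = 4). With that share as a covariate, Aqp5 and Hopx passed in both tamoxifen comparisons (over Miglyol 0.50 for Aqp5 and 0.28 for Hopx, over saline 0.35 for Aqp5 and 0.34 for Hopx) and Spock2 did not (-0.29 over saline, adjusted p = 0.199).

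**Figure D3:**
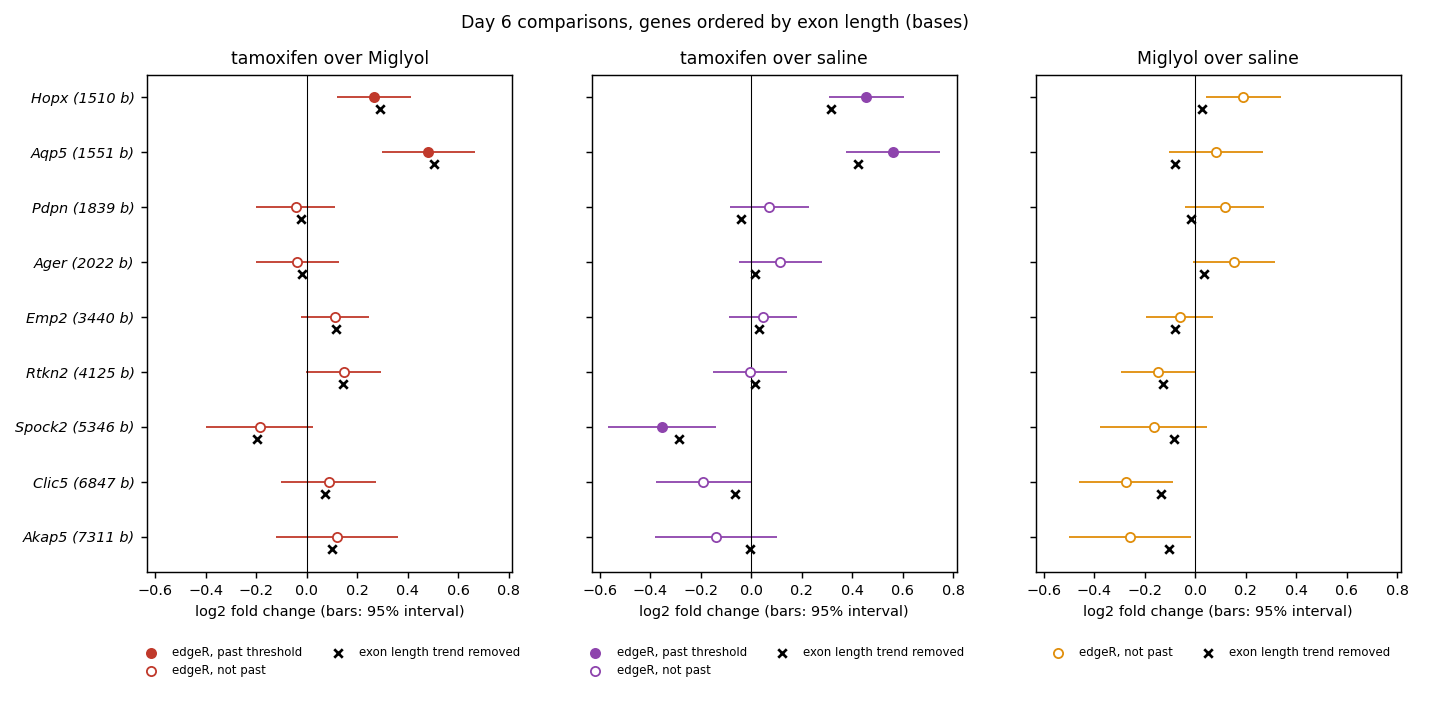
Log2 fold changes at day 6 with 95% intervals, tamoxifen over Miglyol (left), tamoxifen over saline (middle) and Miglyol over saline (right), with genes ordered by exon length in bases. Filled circles passed the threshold, and crosses show the value with the exon length trend removed. In the right panel the 4 shorter genes lie above 0 and the 5 longer ones below, and the crosses lie between -0.13 and 0.04.

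Other type 1 genes did not all follow Aqp5 and Hopx. Of the 20 further genes, 3 rose and 2 fell for tamoxifen against Miglyol, beside 3.71% of all genes that rose and 1.96% that fell. For tamoxifen against saline 5 rose and 4 fell, beside 11.3% of all genes that rose and 12.3% that fell. Igfbp2, a binding protein of insulin-like growth factors that marks late type 1 cells in mice, fell to 35.8 ± 7.10 CPM after tamoxifen, against 92.1 ± 14.0 CPM after Miglyol (log2 fold change -1.36, SE 0.13, adjusted p = 7.95e-05) and 78.4 ± 6.65 CPM after saline (-1.14, adjusted p = 7.92e-05). Scnn1b, a subunit of the epithelial sodium channel, rose to 77.2 ± 14.3 CPM after tamoxifen, against 51.8 ± 5.54 CPM after Miglyol (0.58, SE 0.11, adjusted p = 0.00464). Gramd2 rose by 0.35 (adjusted p = 0.00512) and Gprc5a by 0.26 (adjusted p = 0.0129) over Miglyol. Ndnf, which encodes a secreted protein, fell by 0.66 over saline (adjusted p = 0.000827). For Miglyol against saline, 2 of the 20 passed, near the share of 10.6% among all genes. Both fell, Timp3 by 0.39 and Agrn by 0.26 on the log2 scale, beside 7.29% of all genes that fell. Of the 13 lineage and YAP/TAZ-TEAD genes 3 passed there, and all fell, Lats2 by 0.28 (adjusted p = 0.00773), Tead4, a TEAD factor gene, by 0.40 (adjusted p = 0.0364) and Lats1 by 0.25 (adjusted p = 0.0392). None of these 13 passed for tamoxifen against Miglyol. Against saline, Nkx2-1 rose by 0.29 after tamoxifen (adjusted p = 0.00790), and Lats2 fell by 0.44 and Lats1 by 0.22.

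Some airway and type 2 markers also passed in these comparisons. Of 12 type 2 markers 4 rose and none fell over Miglyol, with Sftpa1 up by 0.59 (adjusted p = 0.000571) and Lyz2, which macrophages also express, by 0.50 (adjusted p = 0.000332), beside the 3.71% of all genes that rose. Of 6 club and ciliated cell markers 3 rose over Miglyol and 6 over saline (beside 11.3% of all genes), with Scgb1a1 at 6592 ± 668.8 CPM after tamoxifen, 4105 ± 266.9 CPM after Miglyol and 3274 ± 251.9 CPM after saline. The sum of those 6 markers was 7472 to 9228 CPM after tamoxifen, 5047 to 5590 CPM after Miglyol and 3903 to 4723 CPM after saline, and none of them was at 0. Aqp5 is also expressed in airway glands and epithelium. Of 5 basal and gland markers 3 were tested over Miglyol, and 1 of them passed, Ltf, with a rise of 2.21. Over saline the 3 tested markers all rose past the threshold, beside 11.3% of all genes. In whole lung the cells that the Ltf reads came from cannot be told. The sum of those 5 markers was 31.7 to 101.8 CPM after tamoxifen, 9.40 to 22.0 CPM after Miglyol and 7.65 to 10.2 CPM after saline. Their part in the Aqp5 result was not tested. The mesothelial marker Msln rose by 0.45 over Miglyol, and Pdpn, which mesothelium shares, did not pass (-0.04, 95% interval -0.20 to 0.11).

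At day 14 the design asks what repeated saline, water and the scrambled probes do to the lung by themselves. None of the 9 genes passed the edgeR threshold in any of the 6 comparisons. Of all 14179 genes, 0.233% passed for daily saline against untreated, 0.0494% for water against untreated, 2.74% for daily saline against water, 0.12% for scrambled 1 against water, 0% for scrambled 2 against water and 0.205% for scrambled 1 against scrambled 2. Nor did any of the 9 pass in the test for any difference among the 5 groups, in which 1.17% of genes did. At an unadjusted p under 0.05 that test took in 6 of the 9 genes, beside 14.9% of all genes. DESeq2 called 3 of them, Aqp5 (adjusted p = 0.00377), Spock2 (adjusted p = 0.00615) and Ager (adjusted p = 0.0351). It called more genes than edgeR in all, 584 of 14179 against 166. With edgeR, Aqp5 was nearest to the threshold (adjusted p = 0.0533), followed by Spock2 (0.0800) and Ager (0.151). Over the 54 tests of single comparisons the smallest adjusted p was 0.192, and the 95% intervals reached at most 0.59 on the log2 scale.

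The untreated group had the lowest mean CPM of the 5 groups for 9 of the 9 genes, which holds for 16.5% of all genes. Ager had 1384, 1418, 1426 and 1656 CPM after daily saline, 1821, 1574, 1741 and 1307 CPM after scrambled 1, 1455, 1458, 1419 and 1873 CPM after scrambled 2, 1568, 1336, 1391 and 1556 CPM after water, and 1164, 1288, 1318 and 1180 CPM in untreated lungs. The daily saline, scrambled 2 and water libraries were all above the untreated ones, and scrambled 1 replicate 4 was just inside their range. Ager differed by 0.25 on the log2 scale for daily saline against untreated (95% interval 0.05 to 0.45, adjusted p = 0.395) and 0.24 for water against untreated (0.04 to 0.44, adjusted p = 0.472).

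Spock2 had 362.0, 397.1, 370.2 and 489.6 CPM after daily saline, 423.0, 438.5, 424.1 and 319.2 CPM after scrambled 1, 409.4, 448.9, 434.4 and 472.6 CPM after scrambled 2, 396.7, 383.6, 378.9 and 439.0 CPM after water, and 300.9, 320.6, 343.5 and 333.6 CPM in untreated lungs. Again scrambled 1 replicate 4 was the one treated library inside the untreated range. Spock2 differed by 0.32 on the log2 scale for daily saline against untreated (adjusted p = 0.203) and 0.30 for water against untreated (adjusted p = 0.326). Akap5 had 419.7, 456.7, 417.3 and 565.0 CPM after daily saline and 455.0, 514.0, 410.0 and 539.3 CPM after water, against 361.9, 373.0, 393.7 and 379.1 CPM in untreated lungs. These ranges did not overlap either, with log2 fold changes of 0.30 (adjusted p = 0.399) for daily saline and 0.35 (adjusted p = 0.398) for water.

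For daily saline against untreated, 9 of the 9 log2 fold changes lay above 0, as did 50.5% of all genes, and 4 of the 9 (Ager, Spock2, Clic5 and Akap5) were higher without overlap, beside 2.91% of all genes. Their range was 0.07 to 0.32 and their median 0.19, beside 0.0014 over all genes. Without daily saline replicate 4 they stayed above 0 but were smaller, with Akap5 at 0.20, Spock2 at 0.21, Hopx at 0.01 and Rtkn2 at 0.0063. For water against untreated, 9 of 9 lay above 0 (median 0.16), as did 51.1% of all genes, although Hopx and Emp2 (0.02 each) changed sign with some libraries left out or covariates added, and 3 (Ager, Spock2 and Akap5) did not overlap, beside 2.12%. Both comparisons use the same untreated libraries. Of the 20 further type 1 genes, 18 lay above 0 for daily saline and 17 for water, with none past the threshold. Of 12 type 2 markers, 8 lay above 0 for daily saline and 2 for water. The number of libraries high in Xist was 2 of 4 in the daily saline group, 0 of 4 in the water group and 3 of 4 in the untreated group, and with Xist as a covariate none of the 9 genes passed in either comparison.

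Treated groups were also set against each other. For daily saline against water 7 of the 9 values lay above 0 (range -0.06 to 0.13), as did 48.8% of all genes, and none was without overlap, beside 5.46% of all genes higher and 5.88% lower. For scrambled 1 against water the largest value was that of Aqp5, with 243.1, 231.8, 239.1 and 206.3 CPM after scrambled 1, against 212.3, 179.5, 202.7 and 184.1 CPM after water. Only scrambled 1 replicate 4 lay within the water range, and the log2 fold change was 0.24 (95% interval 0.09 to 0.39, adjusted p = 0.192). For scrambled 2 against water all 9 values lay above 0 (0.01 to 0.17), as did 48.3% of all genes, and Emp2 alone was without overlap (1646, 1703, 1691 and 1709 CPM after scrambled 2, against 1581, 1479, 1314 and 1630 CPM after water), beside 1.3% of all genes. Of these signs 6 turned in some alternative: Ager, Hopx, Pdpn and Aqp5 lay between -0.03 and -0.02 without scrambled 2 replicate 4, Akap5 lay at -0.07 without scrambled 2 replicate 2, and Rtkn2 and Akap5 also lay below 0 without water replicate 3. The log2 fold change of Emp2 was 0.17 (95% interval 0.04 to 0.30, adjusted p = 0.920). At an unadjusted p under 0.05, edgeR gave 755 genes in that comparison.

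For scrambled 1 against scrambled 2 the signs again ran with exon length. The 4 shorter genes lay above 0 (median 0.08), although Ager turned to -0.0084 without scrambled 1 replicate 1, and the 5 longer ones below (median -0.13), while 68.4% of the shorter and 39.5% of the longer genes overall lay above 0. The largest differences were 0.19 for Aqp5 (95% interval 0.04 to 0.34, adjusted p = 0.332) and -0.19 for Rtkn2 (-0.38 to -0.003, adjusted p = 0.448). In the wider lists, Vegfa, the endothelial growth factor gene that type 1 cells express in the growing lung, was the only one of 20 further genes that passed among the day 14 comparisons. It fell to 681.8 ± 51.1 CPM after daily saline, against 884.9 ± 52.7 CPM after water (log2 fold change -0.38, SE 0.083, adjusted p = 0.0192). Of 7 capillary markers 3 rose in the same comparison, beside 1.04% of all genes, with Apln up by 0.43 and its receptor gene Aplnr by 0.29. The intronic share of reads was 10.0 ± 1.03% after daily saline and 14.1 ± 1.42% after water (SD, n = 4), and with it as a covariate none of these passed (Vegfa -0.15, adjusted p = 0.600, Apln 0.35, adjusted p = 0.204, Aplnr 0.29, adjusted p = 0.211), while the genes past the threshold numbered 13 of 14179. None of the lineage and YAP/TAZ-TEAD genes passed at day 14.

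**Figure D4:**
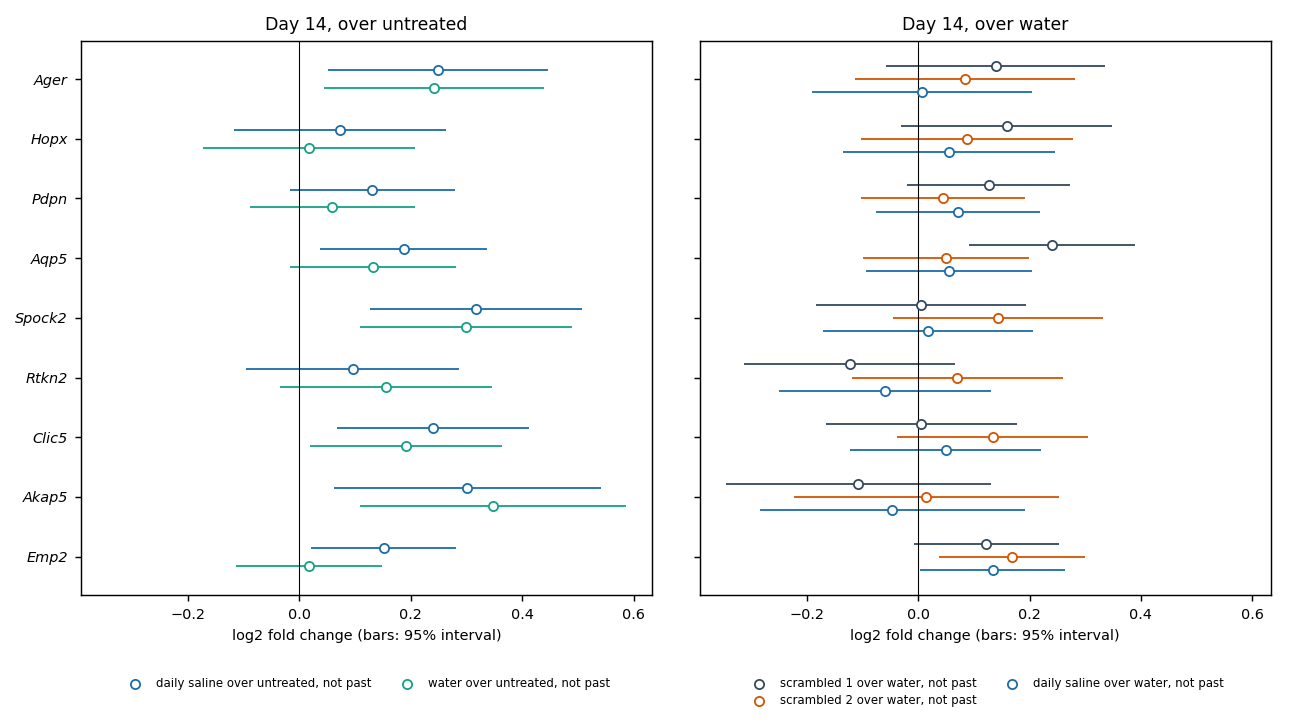
Log2 fold changes of the 9 genes at day 14 with 95% intervals, for daily saline and water over untreated (left) and for scrambled 1, scrambled 2 and daily saline over water (right). All points are open, since none passed the threshold. All values over untreated lie between 0.02 and 0.35, and those over water lie on both sides of 0.

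Within groups the markers varied together to different degrees. After each gene's log2 CPM was centred on its group mean, the closest pair over the 32 libraries by either coefficient was Clic5 and Akap5 (Pearson r = 0.885, Spearman rho = 0.903), followed in Pearson r by Ager and Hopx (r = 0.840, rho = 0.742) and Ager and Pdpn (r = 0.806, rho = 0.755). In Spearman rho the next pair was Spock2 and Emp2 (r = 0.773, rho = 0.841). The pairs were also set out by exon length, without a background of other gene pairs. Pairs of shorter genes had r from 0.434 to 0.840 (6 pairs, median 0.685) and pairs of longer genes from 0.486 to 0.885 (10 pairs, median 0.688), whereas the 20 pairs of 1 shorter and 1 longer gene had r from -0.274 (Aqp5 and Akap5) to 0.756 (Pdpn and Spock2), with a median of 0.211. The points share library, depth and length trend, so these are descriptions only.

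**Figure D5:**
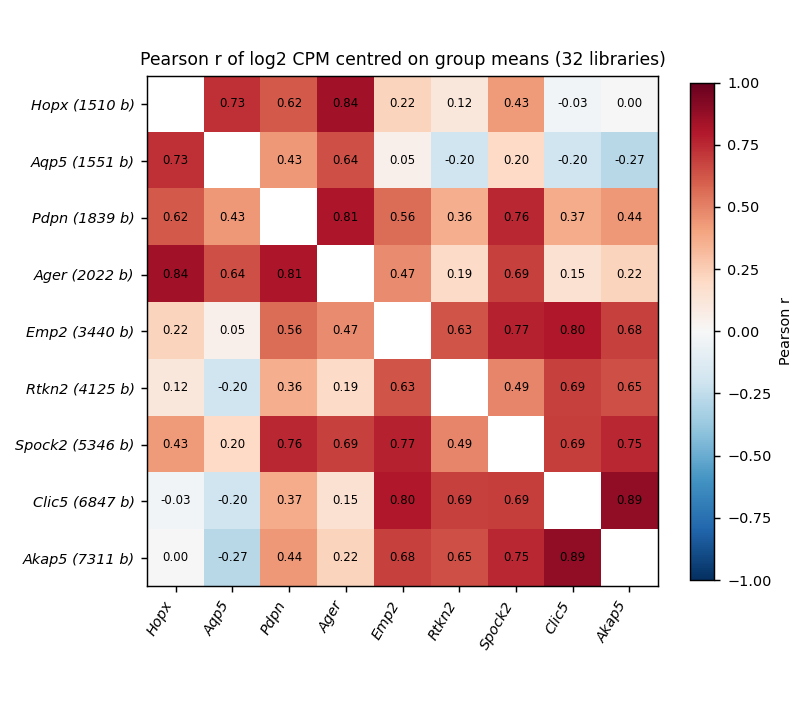
Pearson r between the 9 genes over 32 libraries, from log2 CPM centred on group means, with genes ordered by exon length in bases. The blocks of the 4 shorter and the 5 longer genes have r of 0.434 to 0.885, and the cells between the blocks range from -0.274 to 0.756.

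Among 10611 genes with a mean of at least 10 CPM, those whose centred values were most like the mean of the 9 genes included Cldn18 (Pearson r = 0.896, Spearman rho = 0.873), Tspan15 (r = 0.812, rho = 0.749), Gprc5a (r = 0.810, rho = 0.812) and Galnt18 (r = 0.801, rho = 0.785), over 32 libraries. Fam174b, Hbegf and Col4a4 followed, at r = 0.789, 0.786 and 0.768. Cldn18 encodes a tight junction protein of the alveolar epithelium. Each marker is itself part of the mean of the 9 genes, which raises its r. Of the markers, Spock2 lay closest to the mean (r = 0.910) and Aqp5 farthest from it (r = 0.377).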

How the data were processed

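Whole-lung RNA of C57BL/6 pups was sequenced as stranded, polyA-selected libraries, per the labels' protocols, and bcl2fastq 2.0 is named in the submitters' processing notes. Aligner, build and use of strand in counting: not given in the sources used here. Per the file headers, the authors deposited total and unique counts of exon, intron and gene reads for 46165 gene records, and TPM values computed by the authors. Total exon counts were tested, and TPM served only to compare levels between genes. In the RefSeq table of GRCm38.p6, 43003 gene IDs were found, 97.4% with a start within 5 kb of that in the files.

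Samples were grouped by their labels. Counts were fitted in R 4.3.3 by edgeR 4.0.16 (TMM, filterByExpr, robust quasi-likelihood F tests, Benjamini-Hochberg adjustment over all genes, threshold 0.05, no fold threshold), on the 20 day 14 libraries, the 12 day 6 libraries, or all 32 for age. Displayed CPM use TMM factors over all 32 libraries, values are mean ± SD, and the SE was taken from the F statistic as |log2 fold change| over its root. The median SE for the 9 genes was 0.0914 at day 14. The fit was tested on simulated counts. Promoter windows came from RefSeq and hold the 250 bases before an annotated start, which was that of the files' record in 5 of 9.

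The 9 genes and the gene lists were chosen with earlier results of these data known. From the type 1 and lineage lists, up to 4 genes with the smallest p past the threshold were named per comparison, and up to 2 from each other list. Likeness was the Pearson r of log2 CPM (0.5 added to each CPM) centred on group means. The exon length trend, its slopes and the check of replicate numbers used log2 CPM with a prior count of 2. Some genes that these rules select are not reported here.

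Alternatives were DESeq2 1.42.0, RLE factors, no filter on low counts, unique exon reads, all reads in genes, Xist or the intronic share as a covariate, a replicate block, each library left out, only the 8 samples compared, and all 32 in 1 fit. Removal of the exon length trend (lowess span 0.5) was added, as was a fit that leaves out water replicate 3 and has Xist as covariate, both after values were seen. Xist has no exon reads in the files, so its gene reads were used. The lists of cardiomyocyte, skeletal muscle and adipose genes served to find libraries that stand apart.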

Additional observations from a re-analysis of the deposited data

Results flagged for a closer look

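In 4 of 72 groups of 4 libraries, 1 library lay far from the others by Dixon's ratio, a rule that chance meets in about 1 in 20 groups. Ager had 1656 CPM in daily saline replicate 4, against 1384 to 1426 CPM in the others of its group. Ager had 1873 CPM in scrambled 2 replicate 4, against 1419 to 1458 CPM in the others, and Aqp5 had 229.1 CPM in that same library, against 189.8 to 195.6 CPM. Spock2 had 319.2 CPM in scrambled 1 replicate 4, against 423.0 to 438.5 CPM in the others. Every one of these 4 values comes from a library numbered 4, and a link with the number was not tested.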

How the results depend on the processing

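The 7 rises with age kept their direction and passed in every alternative run, and so did Aqp5 in both tamoxifen comparisons and Hopx for tamoxifen against saline. The other calls depended on the setting. Of the 9 genes, 2 passed for tamoxifen against Miglyol and 1 passed (Aqp5) with all reads in genes, with the replicate block, with only the 8 samples compared and with all 32 samples in 1 fit, where the adjusted p of Hopx was 0.0618, 0.0840, 0.0734 and 0.0628. Of all genes, 946 of 16535, 565 of 14107, 488 of 13996 and 1051 of 14406 passed in these settings, in that order. With each library left out in turn the count among the 9 genes was 1 to 3. For tamoxifen against saline 3 passed, and 2 to 5 with a library left out (5 without tamoxifen replicate 4, where Clic5 and Akap5 passed too). For Miglyol against saline none passed. With DESeq2 1 passed, beside 1921 of 14107 genes, and with only the 8 samples compared 2 did, beside 2573 of 13905. With all 32 samples in 1 fit 1 passed, beside 2272 of 14406 genes, and with a library left out 0 to 1 did. For daily saline against water none passed, and 1 (Emp2, 0.23) with all reads in genes, beside 1270 of 16718 genes. For any difference at day 14 none passed. With DESeq2 3 passed, beside 584 of 14179 genes, and 1 without the filter on low counts, beside 172 of 18548. With all reads in genes 2 passed, beside 472 of 16718 genes, and 1 with the exon length trend removed, beside 348 of 14179. With a library left out 0 to 1 passed. For any difference at day 6 3 passed, and 2 to 5 with a library left out, and Spock2 lost that call without the filter on low counts (adjusted p = 0.0677), with all reads in genes (0.0524), with the intronic share (0.251) and with the exon length trend removed (0.111). For age 7 passed, and 7 to 8 with a library left out, where Rtkn2 was the eighth. The cause was not tested. Of the list genes named in the text, Vegfa lost its call in 5 alternatives, Timp3 over saline after Miglyol in 7, Agrn in 4, Aplnr in 5, Lats1 over saline after tamoxifen in 10, and Nkx2-1 over saline, Gprc5a over Miglyol, Msln over Miglyol and Apln for daily saline against water in 1 each, and Lats2, Lats1 and Tead4 for Miglyol against saline in 1, 10 and 9. In pairwise comparisons, 26 of the 90 log2 values of the 9 genes changed sign in some alternative, none of them past the threshold in either fit, and the largest value after such a change was 0.19.

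Replicate numbers recur across groups, and the labels state no pairing. The deviations of same-numbered libraries had correlations of -0.345 to 0.472, with all 4 above 0.1 in no comparison. Such correlations cannot show whether the numbers mark a pairing, so a replicate block was run as an alternative. The replicate block ended the call of Hopx for tamoxifen against Miglyol (log2 fold change 0.27, adjusted p = 0.0840) and that of Spock2 for any difference at day 6 (adjusted p = 0.0557). Precision limits the day 14 comparisons: the median SE of the 9 genes was 0.0914 on the log2 scale.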
